A study of Mus musculus with 74 samples.

Results

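Tmeff2, Dpy19l3 and Rassf3 are 3 mouse genes whose regulatory regions stood at or near the top of the H3K27ac differences between Gps2 LKO and WT livers, and they were chosen by those H3K27ac values. Their members here are every region that the 11 deposited peak tables assign to one of these genes by the nearest annotated start, together with the RNA-seq row of each gene. That gave 328 of 743949 regions (74 for Tmeff2, 45 for Dpy19l3 and 209 for Rassf3) and 3 of 14583 genes. The same stretch of genome is listed again in several tables, so the 328 regions are not separate sites.

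All 74 samples were livers of C57BL/6 mice labelled as 8 to 12 weeks old and kept on normal chow. The Gps2, Ncor and Smrt lines compared liver knockouts (LKO), in which Cre driven by the albumin promoter removes the floxed gene from hepatocytes, with floxed WT mice. The Ppara line compared mice lacking Ppara in the whole body (KO) with WT mice. Cells of the liver other than hepatocytes therefore keep Gps2, Ncor and Smrt in the LKO samples, and fewer cells of a type and less RNA or chromatin signal per cell cannot be told apart in whole liver. ChIP-seq made up 64 of the samples, with 2 inputs not used here. Several immunoprecipitations were pooled for each ChIP-seq sample. RNA-seq was done in the Gps2 line alone, with 4 WT and 4 LKO samples. The labels do not say which mouse each library came from, so p-values measure the spread between libraries.

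Library totals ranged from 7.9 to 46.1 M tags for ChIP-seq and from 13.2 to 20.1 M reads (M, mega) for RNA-seq. The 3 PPARα libraries of WT mice in the Gps2 line differed from each other by less than the sampling noise, and were summed and counted as 1 sample in the fit. The 6 H3K27ac libraries of the Smrt line held 0 tags per 10M in Y-chromosome peaks and 249 to 289 tags per 10M in the Xist peak. Those of the Ncor line held 306 to 371 and 2.93 to 4.92, and those of the Gps2 line held 428 to 471 in Y-chromosome peaks. The study's methods describe all mice as male, but the Smrt-line values are those of female tissue and the Ncor-line values those of male tissue. Line and these sex-linked signals cannot be told apart, which touches each comparison of the Smrt with the Ncor line given further on.

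GPS2 is a small subunit of a corepressor complex that also holds NCOR or SMRT and the histone deacetylase HDAC3. The complex is brought to chromatin by nuclear receptors and other factors, where it removes acetyl groups from histones. H3K27ac marks active enhancers and promoters, and H3K4me3 marks promoters. PPARα, a nuclear receptor of hepatocytes that drives fatty acid oxidation, binds DNA with RXR at a pair of AGGTCA-like hexamers spaced by a single base (DR1). Tmeff2 encodes a transmembrane protein with follistatin-like and EGF-like domains, best known from brain and prostate. Dpy19l3 encodes an enzyme of the endoplasmic reticulum that adds mannose to tryptophan residues of secreted proteins. Rassf3 encodes a Ras association domain protein with a SARAH domain, through which the family contacts the MST kinases of the Hippo pathway.

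In the mm9 build, Tmeff2 lies at chr1:50957491-51244114 on the plus strand and spans 286.6 kb. The peak tables measure its distances from a start at 50984368, inside the annotated gene. Dpy19l3 lies at chr7:36470184-36539473 on the minus strand and spans 69.3 kb. Rassf3 lies at chr10:120847406-120913306, also on the minus strand, and spans 65.9 kb. In what follows each peak is named by the distance of its centre from that start, with minus for upstream.

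The binding peaks on which the results turn are shown as the 151 bases of the mm9 plus strand around the peak centre. The first is the GPS2 peak that the table assigns to Tmeff2 at -244.4 kb (chr1:50739859-50740009), where capitals mark AGGTCA, the hexamer that nuclear receptors bind. The next 3 are the PPARα peaks with the largest fold in the introns of Tmeff2 (chr1:50985825-50985975, chr1:51009216-51009366 and chr1:51097160-51097310), which hold none of the motifs searched. The fifth is the GPS2 peak in intron 3 of Dpy19l3 (chr7:36532161-36532311), where capitals mark a match to the STAT pattern TTCNNNGAA. The last is the strongest GPS2 peak of Rassf3 (chr10:120923554-120923704), with no match.
Tmeff2 -244.4 kb, GPS2: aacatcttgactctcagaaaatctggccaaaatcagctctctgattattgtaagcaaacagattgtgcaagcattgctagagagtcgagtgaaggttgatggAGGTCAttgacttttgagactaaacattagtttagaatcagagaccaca
Tmeff2 +1.5 kb, PPARα: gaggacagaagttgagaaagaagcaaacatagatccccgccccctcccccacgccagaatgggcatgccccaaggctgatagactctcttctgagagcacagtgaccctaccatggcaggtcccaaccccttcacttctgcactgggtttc
Tmeff2 +24.9 kb, PPARα: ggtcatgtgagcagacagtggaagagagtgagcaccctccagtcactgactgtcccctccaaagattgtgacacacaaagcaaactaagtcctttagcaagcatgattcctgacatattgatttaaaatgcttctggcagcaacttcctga
Tmeff2 +112.9 kb, PPARα: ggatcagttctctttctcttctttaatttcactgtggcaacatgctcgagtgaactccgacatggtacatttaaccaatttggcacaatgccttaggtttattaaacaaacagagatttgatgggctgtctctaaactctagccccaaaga
Dpy19l3 +7.2 kb, GPS2: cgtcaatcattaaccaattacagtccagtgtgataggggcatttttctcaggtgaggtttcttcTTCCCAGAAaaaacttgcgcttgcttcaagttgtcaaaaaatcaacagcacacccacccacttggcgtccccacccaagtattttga
Rassf3 -10.3 kb, GPS2: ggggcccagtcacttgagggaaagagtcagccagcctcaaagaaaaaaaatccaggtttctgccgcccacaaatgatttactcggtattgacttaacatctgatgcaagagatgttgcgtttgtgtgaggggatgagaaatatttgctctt

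Both strands of these windows were searched for AGGTCA, for DR1 (AGGTCA, any 1 base, AGGTCA, with at most 1 mismatch in the 12 fixed letters, so that a DR1 match can contain the hexamer), for TTCNNNGAA and for the forkhead pattern TGTTTAC. Of all PPARα windows of the Gps2 line, 3.02% held a DR1 match and 29.0% the hexamer. Of the 21 PPARα windows of Tmeff2, 0 held a DR1 match and 5 held the hexamer. Of the 29 of Rassf3, 1 held a DR1 match and 10 held the hexamer, and of the 7 of Dpy19l3, 0 and 1 did. In the GPS2 table, where 1.96% of all windows held a DR1 match, 25% the hexamer, 5.66% the STAT pattern and 5.02% the forkhead pattern, 5 of the 20 member windows held the hexamer, 1 a DR1 match, 1 the STAT pattern and 0 the forkhead pattern.

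Tmeff2 RNA was nearly absent from WT livers and higher in every Gps2 LKO library, whereas Dpy19l3 and Rassf3 RNA fell. The targeted gene was checked first. Gps2 RNA, in CPM (reads per megaread of the library), was 17.5, 16.9, 17.7 and 16.1 in the WT libraries. It was 11.6, 9.66, 8.60 and 11.9 in the LKO libraries, all 4 below every WT value (log2 fold change -0.53, SE 0.11, adjusted p = 0.0021, edgeR quasi-likelihood test). Which exons the reads came from is not given, so part of this RNA can come from transcripts lacking the deleted part.

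Tmeff2 had 8, 9, 16 and 3 reads in the WT libraries (0.573 ± 0.322 CPM, SD, n = 4) and 480, 692, 577 and 475 reads in the LKO libraries (34.2 ± 1.36 CPM, SD, n = 4). The groups were far apart, and the fold change was 65.8 (log2 6.04, SE 0.18, adjusted p = 1.35e-11, edgeR). Dpy19l3 measured 10.8, 10.7, 12.5 and 10.4 CPM in the controls, against 1.51, 3.09, 1.22 and 1.14 CPM after deletion. It fell 5.41-fold (log2 -2.43, SE 0.21, adjusted p = 1.2e-06, edgeR), and LKO replicate 2 kept the highest level of its group. That library mattered over all genes as well. Without it 3425 genes were called higher and 3545 lower, against 2856 and 2621 with it, while leaving out any other library gave fewer of both. Rassf3 measured 139, 131, 138 and 129 CPM in the controls, against 58.0, 64.2, 64.8 and 65.0 CPM after deletion. It fell 1.88-fold (log2 -0.91, SE 0.06, adjusted p = 9.76e-08, edgeR), with no overlap between groups. Of the 12220 genes tested, 23.4% were called higher and 21.4% lower, so a call by itself is common in this comparison. These calls come from RNA libraries and not from the H3K27ac libraries by which the genes were chosen. Both are of the same line, and whether they share livers is not given. The members were also chosen with earlier results of these data known.

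Per kilobase of exon, the order of the 3 genes changed with genotype. In WT livers Rassf3 stood at 39.3, Dpy19l3 at 1.45 and Tmeff2 at 0.172 CPM per kb. In LKO livers Rassf3 was still highest at 18.4, but Tmeff2 at 10.2 stood above Dpy19l3 at 0.227 CPM per kb.

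**Figure D1:**
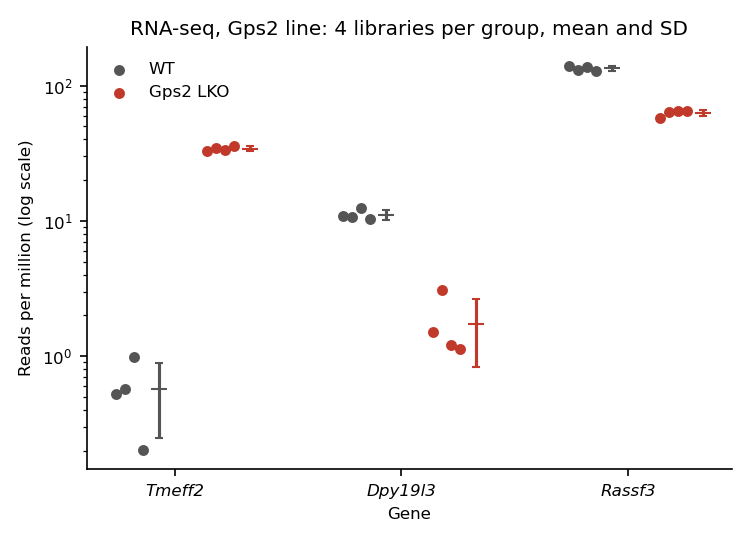
RNA level of Tmeff2, Dpy19l3 and Rassf3 in CPM on a log scale, with 1 point per library of the Gps2 line and the mean and SD beside the points (n = 4 libraries per genotype). Tmeff2 moves from 0.573 in WT to 34.2 in LKO libraries, while Dpy19l3 and Rassf3 are lower in all 4 LKO libraries.

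H3K27ac was counted over peaks of 2 WT and 2 LKO libraries of the Gps2 line. Because these values chose the loci, they are a description without a test, and so is H3K4me3, which was counted over the same peaks. Levels are tags per 10M, and log2 ratios were taken after adding 1 tag per 10M. Among all 85764 peaks, both LKO libraries lay above both WT libraries at 24.8% for H3K27ac and below them at 16.2%. For H3K4me3 the shares were 18.1% and 16.1%. The median log2 ratio over all peaks was 0.04 for H3K27ac and 0.02 for H3K4me3.

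At Tmeff2, 11 of 12 H3K27ac peaks were higher in both LKO libraries, with a median log2 ratio of 1.82 and a range of 0.35 to 3.69. The peak over the start (+0.5 kb, chr1:50983114-50986651) had 7.99 and 11.9 in WT and 111 and 128 in LKO libraries. The intronic peaks at +7.8 kb (1.2 and 3.06 against 41.8 and 37.0), +27.6 kb (4.80 and 7.15 against 68.8 and 83.5) and +31.1 kb (4.80 and 5.11 against 59.8 and 66.6) differed alike. These 4 peaks, in the first 31.1 kb of the gene as the tables start it, had the 4 largest positive ratios of 11774 ranked, at 10.8-fold to 12.9-fold. The next, singled out after its value was seen, belonged to Cdk5rap1 (log2 2.93). Farther away the ratios were smaller. The peaks at +178.9, +180.0 and +180.6 kb had log2 ratios of 0.61, 0.35 and 0.80.

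H3K4me3 at the Tmeff2 start was 86.1 and 95.8 in the controls, against 494 and 441 after deletion, a 5.1-fold ratio and the 6th largest of 5196 positive ratios ranked. Of the 12 Tmeff2 peaks, 7 were higher for H3K4me3, 2 lower and 3 overlapping. Apart from the start peak they averaged only 1.0 to 13.8 H3K4me3 tags a library, the 2 lower ones 1.8 and 1.5.

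At Dpy19l3 all 4 H3K27ac peaks were lower in LKO livers, with log2 ratios from -0.85 to -2.55. The peak across intron 3 (+7.6 kb, chr7:36528076-36535763) had 416 and 298 in WT and 77.9 and 42.5 in LKO libraries, 5.9-fold lower and the largest negative ratio of 5452 ranked. The neighbouring peak at +14.9 kb had 89.9 and 72.9 against 20.3 and 15.6 (log2 -2.12). The promoter peak at +0.4 kb had 172 and 136 against 77.1 and 62.5 (log2 -1.13). H3K4me3 at that promoter was 370 and 311 in the controls, against 293 and 327 after deletion, so the groups overlapped there.

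At Rassf3, 12 of 13 H3K27ac peaks were lower, but by unequal amounts, with log2 ratios from -0.29 to -2.41. The peaks at -36.6 and -17.0 kb, upstream of the gene, differed most. The peak at -36.6 kb (chr10:120945664-120954050) had 356 and 328 in WT and 64.7 and 62.2 in LKO libraries, and the much larger peak at -17.0 kb (chr10:120920958-120939641) had 1823 and 1793 against 554 and 522. Between them, the -29.0 kb peak had 181 and 167 against 116 and 94.4 (log2 -0.72), a ratio near that of the intronic peak at +30.4 kb (log2 -0.78). The promoter region at +4.2 kb had 965 and 897 against 666 and 735 (log2 -0.41), and the intronic region at +45.6 kb had 928 and 829 against 571 and 602 (log2 -0.58). The -36.6 kb peak had the 4th largest negative ratio, just outside the first 3, which were at Dpy19l3, Moxd1 (log2 -2.47) and Gm21320 (log2 -2.42).

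H3K4me3 at the -36.6 kb region of Rassf3 was 213 and 216 in the controls, against 47.9 and 36.7 after deletion, the largest negative H3K4me3 ratio of 1433 ranked (log2 -2.31). At -17.0 kb it was 339 and 300 against 101 and 89.9 (log2 -1.73). At the promoter region it was 1204 and 1116 against 887 and 921 (log2 -0.36). Of the 13 Rassf3 peaks, 6 were lower for H3K4me3, 6 overlapped, the -29.0 kb peak among them (log2 -0.12), and 1 was higher, at +32.1 kb (log2 1.64), where the mean was 2 tags a library.

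**Figure D2:**
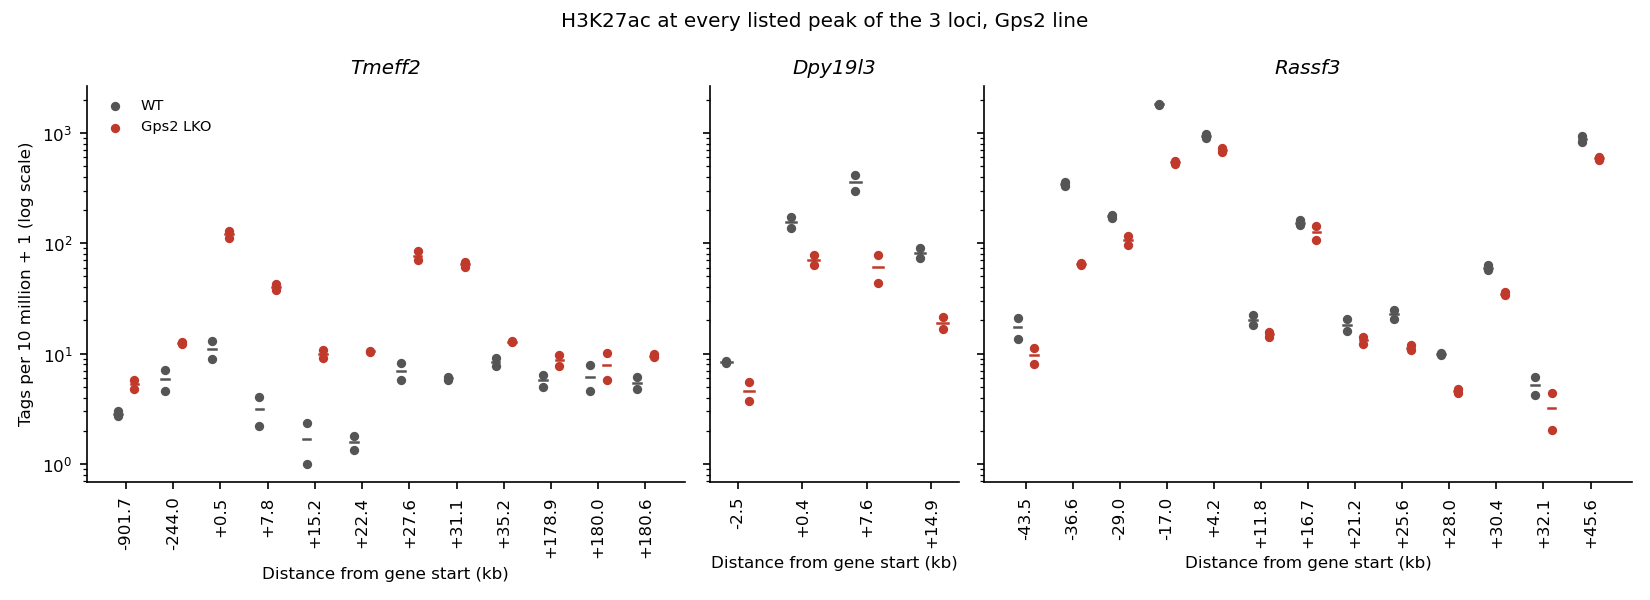
H3K27ac level (tags per 10M plus 1, log scale) at every listed peak of the 3 loci in the Gps2 line, ordered by distance from the gene start in kb, with 1 point per library (2 WT, 2 LKO) and a bar at the mean. LKO points lie above WT points at 11 of 12 Tmeff2 peaks and below them at all 4 Dpy19l3 and 12 of 13 Rassf3 peaks.

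GPS2 itself was mapped in 1 WT and 1 LKO library of the Gps2 line, which allows no test. The share of tags in GPS2 peaks was 7.07% in the WT and 0.31% in the LKO library. All 20 member peaks were past 2-fold lower in LKO, as were 99.3% of all GPS2 peaks. Intervals given here are exact Poisson 95% intervals and cover counting error only.

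The strongest member peak was the Tmeff2 one at -244.4 kb, with 125 tags (104 to 149) in WT and 0 in LKO, at least 39.8-fold lower when 0 is set to 3 tags. It was the sole GPS2 peak assigned to Tmeff2 in this table, and no GPS2 peak of this table overlapped any of the 12 H3K27ac peaks of Tmeff2. However, an intergenic H3K27ac peak (chr1:50740088-50740607) begins just beyond the end of this GPS2 peak. H3K27ac there was higher in both LKO libraries than in both WT libraries (log2 ratio 1.08), at a mean of 22.8 tags a library. Rassf3 had 15 GPS2 peaks, all overlapping its H3K27ac peaks. The 3 strongest lay upstream, with 62 tags at -10.3 kb against 0, 50 at -12.6 kb against 1, and 46 at -23.9 kb against 0, and the promoter had 28 against 0. Dpy19l3 had 4 weak peaks of 9 to 12 WT tags and at most 1 LKO tag, 1 of them in intron 3 at +7.2 kb (12 against 0). Peaks of this height are read with wide intervals (6.20 to 21.0 tags for that one).

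Pol II, the enzyme that transcribes these genes, was also mapped in 1 library of each genotype. At the Tmeff2 start it had 155 tags (132 to 181) in WT and 162 (138 to 189) in LKO, with overlapping intervals, beside the 65.8-fold difference in Tmeff2 RNA. The Rassf3 promoter had 207 (180 to 237) against 185 (159 to 214), and the Dpy19l3 promoter 58 (44.0 to 75) against 50 (37.1 to 65.9). The sole member peak of 11 past 2-fold was at -13.8 kb of Rassf3, with 31 tags (21.1 to 44.0) against 12 (6.20 to 21.0), where 11.3% of all Pol II peaks were past 2-fold.

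**Figure D3:**
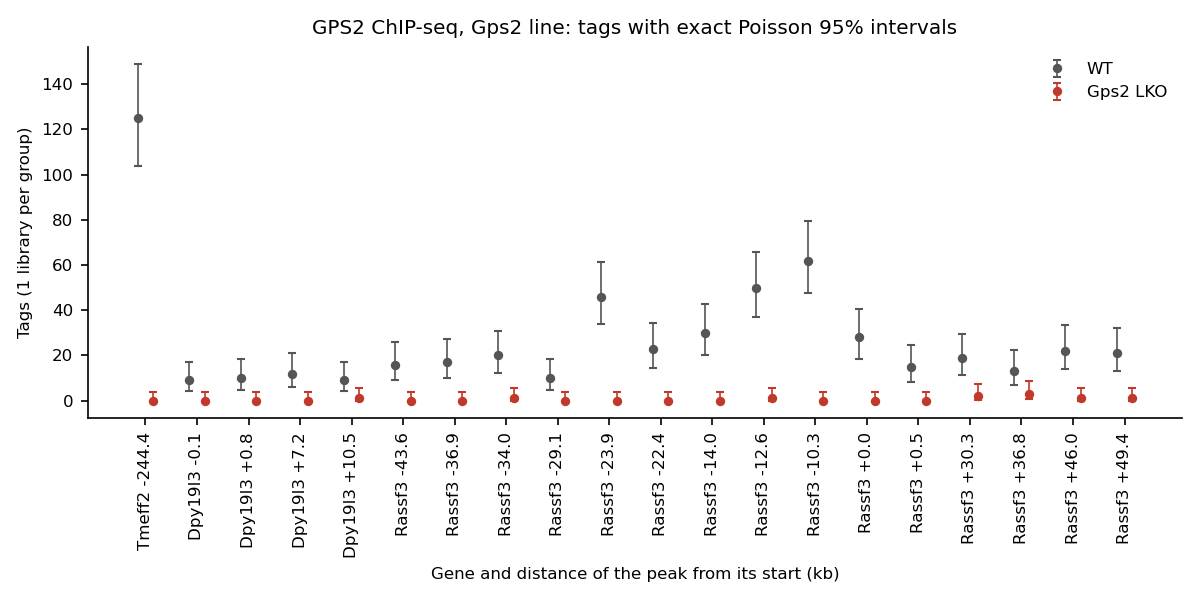
GPS2 tags at the 20 member peaks in the single WT and the single LKO library of the Gps2 line, with exact Poisson 95% intervals. The -244.4 kb peak of Tmeff2 has the most WT tags (125), and no LKO library value exceeds 3 tags.

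PPARα binding in Gps2 LKO livers was stronger along Tmeff2, weaker at 4 of 6 peaks in intron 3 of Dpy19l3 and mixed at Rassf3. Here 3 LKO libraries were set against the 3 WT libraries counted as 1, scaled to total tags, and 21.5% of 102519 peaks were called higher and 0.147% lower. At Tmeff2, 12 of 21 peaks were called higher and 0 lower. At Dpy19l3, 0 of 7 were called higher and 4 lower, and at Rassf3 1 of 29 was called higher and 1 lower. The median log2 fold change was 2.44 for Tmeff2, -1.78 for Dpy19l3 and 0.08 for Rassf3, beside 0.62 for all peaks. The share of tags in PPARα peaks was 19.23 to 21.94% in WT and 28.86 to 32.13% in LKO libraries, so the scaling matters. With TMM scaling, which centres all peaks near 0 (median 0.02), 553 peaks were called higher and 445 lower, against 22086 and 151. Under TMM scaling Tmeff2 had 4 of 21 peaks called higher, Dpy19l3 had 4 called lower, and Rassf3 had 0 called higher and 4 lower.

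The PPARα peak in intron 1 of Tmeff2 (+1.5 kb) had 2, 3 and 1 tags in WT and 51, 69 and 85 in LKO libraries, for a log2 fold change of 4.65 (SE 0.44, adjusted p = 6.83e-21, edgeR). In intron 4, the peak at +24.9 kb had 0, 2 and 1 tags against 21, 26 and 38 (log2 4.32, adjusted p = 5.7e-10, edgeR), and that at +112.9 kb had 1, 1 and 1 against 23, 19 and 34 (log2 4.17, adjusted p = 1.19e-08, edgeR). The peak at +27.7 kb, within an H3K27ac peak, had 1, 2 and 3 against 21, 26 and 37 (log2 3.36, adjusted p = 6.94e-08, edgeR). At each of these 4 peaks every LKO library was far above every WT library, and the 4 calls held with TMM scaling. With 0 to 3 tags in each WT library, such regions had too few WT tags to enter the peak table other than through the LKO libraries, so their p-values, the count of 12 and the Tmeff2 median are a description and no independent support. Of the other calls, the largest fold was at +21.5 kb, where WT libraries had at most 1.27 tags per 10M.

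By contrast, the -244.4 kb PPARα peak of Tmeff2 had 121, 128 and 105 tags per 10M in WT and 145, 107 and 108 in LKO libraries, which overlapped (log2 0.00, SE 0.23, adjusted p = 0.999, edgeR). This is the region with the most GPS2 tags. The smaller peak beside it at -248.1 kb rose from 3.80, 6.65 and 5.64 to 17.2, 17.1 and 27.6 tags per 10M (log2 1.95, adjusted p = 3.3e-04, edgeR). Its WT levels were low as well, so it too may be listed through the LKO libraries, and its p-value is no independent support.

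In intron 3 of Dpy19l3 the PPARα peak at +7.2 kb fell from 11, 18 and 15 tags to 3, 2 and 6 (log2 -2.39, SE 0.53, adjusted p = 4.9e-04, edgeR). Those at +9.0 kb (8, 11 and 8 against 0, 2 and 3, log2 -2.79), +11.0 kb (8, 16 and 13 against 5, 1 and 4, log2 -2.25) and +15.4 kb (8, 13 and 8 against 3, 3 and 5, log2 -1.78) also fell. All 4 lie within the 2 intronic H3K27ac peaks that were lower. With 0 to 6 tags in each LKO library, these 4 regions may be listed through the WT libraries. Their p-values are therefore a description as well. The other 2 peaks of intron 3, at +13.8 kb (log2 -0.09) and +16.8 kb (log2 0.02), overlapped between genotypes. Near the start the picture differed, with 6, 10 and 11 tags at +0.8 kb against 23, 21 and 24 (log2 0.95, adjusted p = 0.0588, edgeR), a difference that missed the threshold.

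At Rassf3 the PPARα peak at -23.9 kb rose from 20, 32 and 17 tags to 46, 61 and 78 (log2 1.03, SE 0.28, adjusted p = 5.28e-03, edgeR), a call lost with TMM scaling (adjusted p = 0.615). The peak at -17.5 kb fell from 15, 14 and 10 tags to 9, 3 and 9 (log2 -1.28, SE 0.47, adjusted p = 0.0374, edgeR). The strongest peak, at -10.2 kb, had 182, 195 and 184 tags per 10M in WT and 187, 156 and 125 in LKO libraries. These groups overlapped (log2 -0.28, adjusted p = 0.377, edgeR).

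These PPARα counts rest on 3 LKO libraries and 1 summed WT sample. Without LKO replicate 3 the 18 calls became 11 (8 higher, 3 lower), and DESeq2 called the +1.5 kb peak of Tmeff2 alone.

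**Figure D4:**
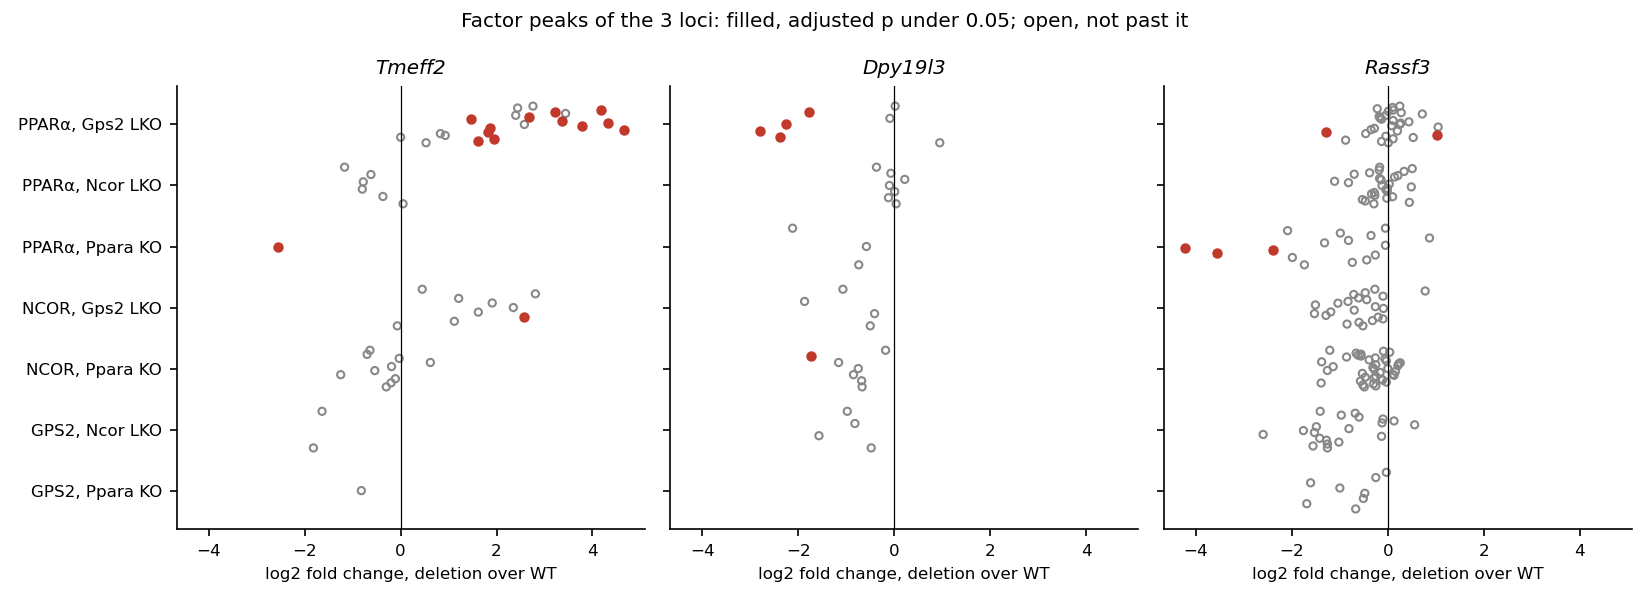
Log2 fold change (deletion over WT) of each PPARα, NCOR and GPS2 peak assigned to the 3 loci, in the 7 comparisons with replicates. Filled points are past an adjusted p of 0.05 (edgeR) and open points are not. Among PPARα peaks in Gps2 LKO livers, 12 filled points lie to the right for Tmeff2 and 4 to the left for Dpy19l3.

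NCOR, the corepressor that partners GPS2, showed a similar order of medians in Gps2 LKO livers, with few calls. The median log2 fold change was 1.62 over the 9 Tmeff2 peaks, -0.78 over the 4 Dpy19l3 peaks and -0.56 over the 22 Rassf3 peaks, beside -0.03 for all peaks. Only 1 member peak was called, and 0.0124% of 80813 peaks were called higher. It lies in intron 1 of Tmeff2 (+1.4 kb), overlapping the PPARα peak, with 11, 6 and 3 tags in WT and 33, 63 and 26 in LKO libraries (log2 2.58, SE 0.54, adjusted p = 0.0197, edgeR). With so few WT tags, this and other intronic Tmeff2 regions may have entered the NCOR peak table through the LKO libraries. Their p-values, and the Tmeff2 median, are thus a description and no independent support. The call was lost without any 1 of the WT libraries or of LKO replicates 1 and 2, and without LKO replicate 3 there were 4 calls. With TMM scaling 4 Tmeff2 peaks were called higher, and 1 Dpy19l3 and 4 Rassf3 peaks lower, beside 231 higher and 128 lower calls among all 80813 peaks.

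The next Tmeff2 peak, at +24.9 kb, had 12, 4 and 2 tags against 35, 41 and 18 (log2 2.35, adjusted p = 0.0534, edgeR), under the same limit. The NCOR peak at -244.4 kb had 258, 198 and 146 tags in WT and 189, 265 and 129 in LKO libraries, so the groups overlapped (log2 -0.07). In intron 3 of Dpy19l3 (+7.2 kb), NCOR tags were 24, 16 and 15 against 4, 7 and 4 (log2 -1.87, adjusted p = 0.498, edgeR), without overlap. At -12.6 kb of Rassf3 NCOR was 66.5, 75.5 and 48.1 tags per 10M in WT and 36.1, 32.9 and 14.1 in LKO libraries (log2 -1.19, adjusted p = 1.00, edgeR).

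In the Ppara line, the PPARα antibody was tested against livers without its target, 2 WT against 2 KO libraries. The share of tags in PPARα peaks was 2.14 to 2.44% in WT and 0.58 to 0.65% in KO libraries. Of 20 member peaks 4 were called lower, where 27.6% of all peaks were, and the all-peak median log2 fold change was -1.68. At Rassf3, 3 of 16 peaks were called lower, and 15 of 16 values were below 0. The peak at -10.2 kb fell from 50 and 45 tags to 3 and 2 (log2 -4.23, SE 0.40, adjusted p = 6.85e-06, edgeR), that at -12.6 kb from 25 and 22 to 5 and 4 (log2 -2.40), and that at -13.9 kb from 20 and 17 to 3 and 0 (log2 -3.57). The Tmeff2 peak at -244.4 kb fell from 28 and 30 tags to 6 and 4 (log2 -2.56, SE 0.41, adjusted p = 2.82e-04, edgeR). Of the 3 Dpy19l3 peaks 0 were called, and none exceeded 2.29 tags per 10M in any library. The 4 calls became 0 without either WT library, and 1 with TMM scaling, by which the all-peak median was -0.22. The intronic PPARα peaks of Tmeff2 seen in Gps2 LKO livers are not listed in this table.

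NCOR in the Ppara line gave 1 call among 56 member peaks, where 2.51% of all peaks were called lower. It was the Dpy19l3 peak at +10.4 kb in intron 3, with 13, 13 and 12 tags in WT and 2, 7 and 4 in KO libraries (log2 -1.73, SE 0.52, adjusted p = 0.0392, edgeR). The call was lost without KO replicate 1 or 3 or any 1 of the WT libraries, and with TMM scaling. The -244.4 kb peak of Tmeff2 had 187, 213 and 206 tags in WT and 206, 239 and 158 in KO libraries, so NCOR there overlapped between genotypes. Member medians were -0.25 for Tmeff2, -0.75 for Dpy19l3 and -0.28 for Rassf3, beside -0.32 for all peaks.

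GPS2 in the Ppara line had 9 member peaks, 8 at Rassf3, 1 at Tmeff2 and 0 at Dpy19l3. None was called, where 0.273% of all peaks were, and 1 had an unadjusted p under 0.05, with 0 calls by DESeq2. The Tmeff2 peak at -244.4 kb had 40, 45 and 67 tags in WT and 38, 29 and 16 in KO libraries (log2 -0.82). The Rassf3 peak at -10.3 kb had 24, 28 and 49 against 15, 12 and 5 (log2 -1.61, adjusted p = 0.149, edgeR). All 9 values were below 0, with a median of -0.67 beside -0.93 for all peaks.

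In the Ncor line, GPS2 at the 26 member peaks gave 0 calls by edgeR, where 0.0338% of all peaks were called, and 10 had an unadjusted p under 0.05. The member median of -1.14 lay close to the all-peak median of -1.12. GPS2 tags at the -244.4 kb peak of Tmeff2 were 155, 60 and 44 in WT and 26, 28 and 30 in LKO libraries (log2 -1.82, SE 0.62, adjusted p = 0.0775, edgeR). At -10.2 kb of Rassf3 GPS2 was 58.0, 70.7 and 17.7 tags per 10M in WT and 15.8, 18.3 and 8.83 in LKO libraries. WT replicate 3 was the lowest WT library at both, and without it 17 of the 26 peaks were called lower, beside 33248 of all 56277 peaks in the same fit. With TMM scaling, which set the all-peak median to -0.04, 0 member peaks were called.

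PPARα in the Ncor line gave 0 calls among 40 member peaks by edgeR, where 0.196% of all peaks were called, and 1 had an unadjusted p under 0.05. In intron 1 of Tmeff2 (+1.5 kb) it had 9, 18 and 11 tags in WT and 6, 16 and 6 in Ncor LKO libraries, overlapping. At +7.2 kb of Dpy19l3 it had 80, 66 and 53 against 33, 72 and 72, and at -10.2 kb of Rassf3 243, 251 and 152 against 202, 160 and 241, also overlapping. DESeq2 and TMM scaling gave 0 calls as well.

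H3K27ac was next compared in Ncor LKO and Smrt LKO livers, which were not used to choose the loci, over 25 member peaks in a single fit of 12 libraries. In Ncor LKO livers 1 of 25 peaks was called, lower, where 0.869% of all peaks were. It was the region 36.7 kb upstream of Rassf3, with 486, 444 and 315 tags per 10M in WT and 296, 266 and 252 in LKO libraries (log2 -0.61, SE 0.15, adjusted p = 0.0356, edgeR). The groups did not overlap, but the call was lost without WT replicate 1 or 2 or LKO replicate 2 or 3. In Smrt LKO livers 0 of 25 peaks were called by edgeR, where 0.00291% of all peaks were, while 4 had an unadjusted p under 0.05 and DESeq2 called 2.

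The Dpy19l3 region in intron 3 (+10.0 kb) had 645, 451 and 414 in WT and 424, 768 and 410 in Ncor LKO libraries, overlapping. In the Smrt line it had 99.2, 219 and 68.3 in WT and 41.9, 51.3 and 89.9 in LKO libraries (log2 -1.09, adjusted p = 0.743, edgeR), also overlapping. At the Tmeff2 start (+0.8 kb) H3K27ac was 12.2, 23.7 and 23.7 in WT and 7.46, 11.5 and 5.86 in Ncor LKO libraries. In the Smrt line the WT libraries had 2.33, 2.45 and 1.71, against 55.2, 5.87 and 10.1 after deletion (log2 3.42, SE 0.76, adjusted p = 0.504, edgeR). LKO replicate 1 held most of that signal, and it was also highest at +8.0 kb, where WT had 3.79, 1.96 and 3.71 and LKO 37.6, 7.14 and 13.5 (log2 2.62, adjusted p = 0.415, edgeR). These 2 peaks were the ones that DESeq2 called.

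The Ncor LKO effect was then set against the Smrt LKO effect in the same fit, and 0 of 25 peaks were called by edgeR, where 0.426% of all peaks were and 4 had an unadjusted p under 0.05. At the +0.8 kb peak of Tmeff2 the difference, Ncor minus Smrt, was -4.70 on the log2 scale (SE 0.98, adjusted p = 0.0542, edgeR). DESeq2 called 2 of the 25, as did edgeR without Smrt LKO replicate 2.

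The control livers of both lines were compared last, and gave more calls at these loci than either deletion did. Smrt WT against Ncor WT gave 14 lower and 1 higher call among 25 peaks, where 9.45% of all peaks were called lower and 12.9% higher, and the member median was -0.90 beside 0.07 for all peaks. All 3 Dpy19l3 peaks were lower, with a log2 difference of -1.96 (adjusted p = 2.17e-03, edgeR) in intron 3. At Rassf3, 9 of 14 were lower, and the -36.7 kb region had 68.6, 61.6 and 73.4 in Smrt WT beside the 486, 444 and 315 of Ncor WT (log2 -2.61, SE 0.16, adjusted p = 1.32e-07, edgeR). The Rassf3 promoter region at +3.0 kb had 951, 890 and 939 against 1091, 1021 and 927 (log2 -0.13), which overlapped. At Tmeff2 the +0.8 kb and +8.0 kb peaks were lower (log2 -3.18 and -2.06), and the intergenic H3K27ac peak beside the -244.4 kb binding peak was higher (log2 1.18). This comparison shares the Ncor WT libraries with the Ncor LKO comparison. Without Ncor WT replicate 1 the 15 calls became 8, all lower. The lines differed in the sex-linked signals given above, whose part in this result was not tested.

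**Figure D5:**
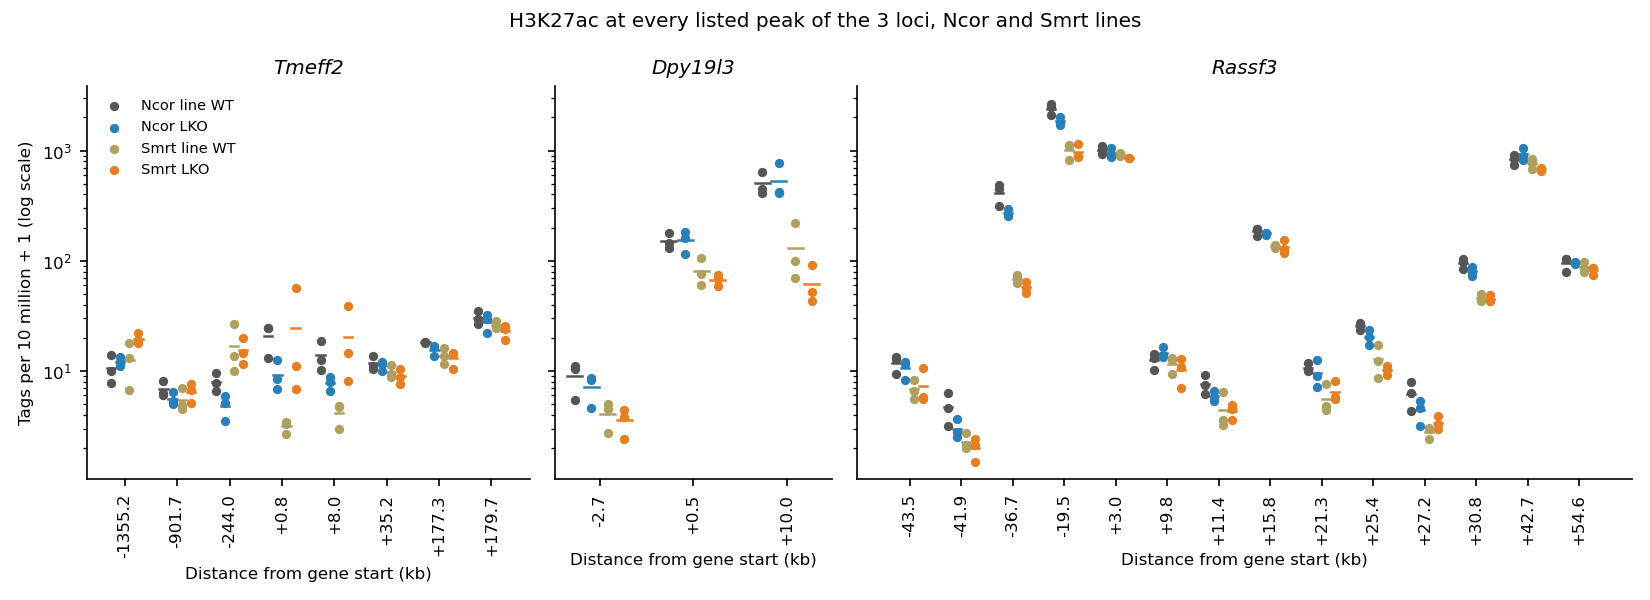
H3K27ac level (tags per 10M plus 1, log scale) at every listed peak of the 3 loci in the Ncor and Smrt lines, ordered by distance from the gene start in kb, with 1 point per library (3 per group) and a bar at the mean. At Rassf3 -36.7 kb the Smrt-line points reach at most 73.4, below all Ncor-line points, while at +3.0 kb the 4 groups lie close together.

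Summing all peaks of a locus in each library gave 1 value per library, tested by an exact two-sided permutation test, which cannot go below p = 0.1 with 3 against 3 and cannot pass 0.05 with 2 against 2 either, so no sum could pass the threshold. For PPARα in the Gps2 line, whose 3 WT libraries count as 1 sample, the sums are given without a test. Over the 21 Tmeff2 peaks they were 182, 181 and 153 tags per 10M in WT and 456, 404 and 369 in Gps2 LKO libraries. Over the 7 Dpy19l3 peaks they were 69.6, 84.5 and 77.8 against 60.9, 42.6 and 41.6, and over the 29 Rassf3 peaks the libraries of both genotypes overlapped. The Tmeff2 sums hold the intronic regions that had too few WT tags to be listed other than through the LKO libraries. The -244.4 kb peak of Tmeff2 averaged 118 tags per 10M in WT and 120 in LKO libraries. The Dpy19l3 sums hold regions that may be listed through the WT libraries. Both sets of sums are thus a description and no independent support. Scaled instead to the tags in all PPARα peaks, the log2 ratios of the Tmeff2, Dpy19l3 and Rassf3 sums were 0.66, -1.26 and -0.58. The GPS2 sums of the Ncor and Ppara lines moved towards 0 by that scaling, the Rassf3 sum in the Ncor line going from -1.22 to -0.03.

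The members' wider families were read in the RNA-seq of the Gps2 line, relative to a median log2 fold change over all genes of 0.03 with TMM scaling and -0.15 without it. Their counts of calls stand beside the 23.4% of all genes called higher and 21.4% called lower. Of the Ras association family, to which Rassf3 belongs, 7 other members were tested, of which 3 rose and 2 fell. Rassf7 rose (log2 0.59, adjusted p = 7.43e-04, edgeR) and Rassf5 fell (log2 -0.60, adjusted p = 3.13e-04, edgeR). Without TMM scaling 2 of these rose and 2 fell. Of 7 Hippo kinase partners 3 fell and 0 rose, among them Mob1b (log2 -0.72, adjusted p = 0.00268, edgeR) and the kinase gene Lats1 (log2 -0.37, adjusted p = 0.0204, edgeR). Both other Dpy19l genes tested fell, Dpy19l1 from 100 to 65.6 CPM (log2 -0.43, adjusted p = 9.96e-05, edgeR) and Dpy19l4 from 5.75 to 3.73 CPM. Of 6 genes of mannosyl donors and mannosyltransferases 1 rose and 2 fell, which became 0 and 4 without TMM scaling. Of 5 other follistatin domain genes tested 4 rose and 1 fell. Sparc, a matrix protein, rose from 48.6 to 73.7 CPM (log2 0.78, adjusted p = 1.52e-06, edgeR). Of 4 ERBB receptors, a family with members that bind EGF-like ligands, 1 rose and 2 fell. Erbb2 rose from a low level, 0.787 to 1.33 CPM (log2 0.94), and Egfr fell from 954 to 604 CPM (log2 -0.49).

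Of 19 listed genes known to be higher in female than male mouse liver, 16 were tested and all 16 rose, with a median log2 fold change of 3.40. The cytochrome P450 gene Cyp2a4 rose from 3.5 to 1123 CPM (log2 8.51, adjusted p = 3.34e-13, edgeR), and Cyp2b9 from 0.13 to 51.9 CPM. Of 17 male-biased genes 15 fell and 0 rose, with a median of -1.21, among them the sterol hydroxylase Cyp7b1 (535 to 75.6 CPM, log2 -2.64, adjusted p = 1.64e-12, edgeR) and Selenbp2. Of the first list, Cyp4a14 is also a PPARα target named by the study, and the other genes were not checked for this. Both lists were chosen with earlier results of these data known. Of 4 sex-linked genes tested, the Y-linked Kdm5d and Uty fell and 0 rose (list sum 180 to 198 CPM in WT, 159 to 178 in LKO).

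Marker genes of liver cells were read in the same way, beside the 23.4% of all genes called higher and 21.4% called lower. All 4 Kupffer cell markers rose (summed 101 to 104 CPM in WT, 122 to 135 in LKO), as did 3 of 4 stellate cell markers (129 to 135 against 192 to 218 CPM), 2 of 4 cholangiocyte markers (9.70 to 12.3 against 11.9 to 13.9 CPM) and 1 of 4 endothelial markers. The endothelial count lay near the share of all genes. Without TMM scaling 2, 3, 2 and 0 rose, beside 1560 of all 12220 genes. Of 5 hepatocyte markers 3 rose (sum 112779 to 116392 against 139559 to 158086 CPM). Of the lymphocyte markers 1 of 1 tested rose (sum 5.42 to 6.67 against 6.92 to 8.51 CPM), of 3 red cell markers 2 rose and 1 fell (232 to 260 against 173 to 218 CPM), and of the neuronal markers 0 of 1 passed (17.2 to 19.5 against 12.4 to 16.6 CPM), with Snap25 not listed. Their part in the RNA differences was not tested.

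Among 21 other genes starting within 500 kb of the 3 starts, 13 were tested, of which 3 rose and 2 fell, shares near the 23.4% and 21.4% of all genes. Sdpr, the sole such gene for Tmeff2 at 361.6 kb, rose 1.64-fold (log2 0.72, adjusted p = 1.75e-04, edgeR), far less than Tmeff2. For Dpy19l3, Nudt19 at 198.2 kb (log2 0.72) and Rhpn2 at 420.3 kb (log2 0.64) rose. Zfp507, the tested gene nearest to Dpy19l3, was not called (log2 -0.09). For Rassf3, Tbc1d30 at 165.1 kb fell from 15.4 to 6.65 CPM (log2 -1.02, adjusted p = 1.44e-05, edgeR). The kinase gene Tbk1 had a log2 fold change of -0.05.

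The genes most like each member over the 8 RNA libraries, by the root mean square difference of log2 levels centred per gene among 11618 genes, were as follows. For Tmeff2 they were Hao2 (0.28), Apoa4 (0.31) and Cyp4a14 (0.32), for Dpy19l3 Lama3 (0.20), Cyp4a12a (0.23) and Serinc2 (0.23), and for Rassf3 C8b (0.06), Ces2a (0.07) and Retsat (0.07). Hao2 rose from 0.207 to 18.7 CPM, and Apoa4, at a far higher level, from 243 to 4181 CPM. Lama3 fell from 15.6 to 2.47 CPM, and C8b from 608 to 283 CPM.

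The 29 H3K27ac peaks of the Gps2 line had 276 overlaps with peaks listed elsewhere. At Dpy19l3 all 7 PPARα peaks, all 4 GPS2 peaks and all 4 NCOR peaks of the Gps2 line overlapped H3K27ac peaks, and at Rassf3 all 29, 15 and 22 did. At Tmeff2 7 of 21 PPARα peaks and 0 of 1 GPS2 peaks did, while all 8 H3K27ac peaks of the Ncor and Smrt lines overlapped one of the 12.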

How the data were processed

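Livers were profiled by ChIP-seq and, in the Gps2 line, by RNA-seq. The authors aligned ChIP reads to mm9 with Bowtie and called peaks with HOMER, and the deposited tables hold raw tag counts per peak and library with total tags in their headers. For RNA-seq the authors deposited counts of reads, 1 row a gene. The study's methods name HISAT2 and HOMER for these, the labels also featureCounts, and which tool made the table was not settled. Peaks were tested with edgeR 4.0.16 (R 4.3.3, quasi-likelihood), with the header totals as library sizes and at least 1 tag per peak. Genes were tested with TMM scaling and filterByExpr. P-values were Benjamini-Hochberg adjusted over each whole table, with a threshold of 0.05.

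The members, gene lists and motifs were chosen with earlier results of these data known. Named peaks were, per gene and table, the one at the start, the one with most tags, those past the threshold and those overlapping the 3 largest H3K27ac ratios in either direction, and a few others added after their values were seen. From each gene list the 2 with the lowest adjusted p were eligible, beside genes within 500 kb and the 3 most alike. Groups of 1 library received exact Poisson 95% intervals, with 3 tags as the floor for 0. DESeq2 1.42.0, other scaling and filters, a replicate block and leaving out each library were the alternatives. Scripts were tested on simulated data with known changes. The fits recovered 100% of these for RNA, 97.5% for H3K27ac in Ncor LKO and 95% for NCOR in Gps2 LKO. They recovered only 56.5% for PPARα in Gps2 LKO and 42% for PPARα in Ppara KO. Of the calls made, 0 to 5.34% were false. Smaller changes, changes at lower counts and wider spreads were not simulated, so these shares do not cover weak member peaks. Deviations of libraries with the same replicate number correlated at -0.27 to 0.33, and in no line with 3 or more pairs did every pair exceed 0.1. The 2-pair lines reached 0.19, and no label ties the numbers to a shared animal or day, so no samples were treated as paired. The values of 1 gene are not reported here.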

Additional observations from a re-analysis of the deposited data

Results flagged for a closer look

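Of 34 groups of 4 libraries examined for a library far from the others, 1 was flagged. Rassf3 RNA in Gps2 LKO replicate 1 was 58.0 CPM, against 64.2 to 65.0 CPM in the other 3 LKO libraries, and its gap to the nearest was 0.895 of the group's range, past Dixon's critical value. Chance flags about 1 in 20 such groups. All 4 values lay below all WT values.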

How the results depend on the processing

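RNA calls of the 3 genes were 3 under all 13 alternatives, and GPS2 in the Ppara line and PPARα in the Ncor line kept 0 calls under theirs. With DESeq2, calls among member peaks became 2 for H3K27ac in Smrt LKO (from 0), 2 for the Ncor and Smrt difference (from 0), 5 for NCOR in Gps2 LKO (from 1), 0 for NCOR in Ppara KO (from 1), 1 for PPARα in Gps2 LKO (from 18) and 1 for PPARα in Ppara KO (from 4). Over all peaks DESeq2 called 31 higher and 17 lower of 51460 for H3K27ac in Smrt LKO. The difference had 861 and 366 of 54128. For NCOR it called 43 and 33 of 36943 in Gps2 LKO, and 154 and 452 of 88277 in Ppara KO. For PPARα these were 15 and 7 of 56804 in Gps2 LKO, and 114 and 455 of 4353 in Ppara KO. With filterByExpr, member calls became 1 for the difference, 2 for GPS2 in Ncor LKO (from 0) and 0 for NCOR in Ppara KO. Over all peaks filterByExpr called 227 higher and 67 lower of 68599 for the difference. It called 2 and 1698 of 24882 for GPS2 in Ncor LKO, and 110 and 2290 of 73577 for NCOR in Ppara KO. With TMM scaling, member calls became 9 for NCOR in Gps2 LKO and 1 for PPARα in Ppara KO. The all-peak calls beside them were 231 higher and 128 lower of 80813, and 181 and 1267 of 40241. With only the 6 libraries of the Ncor line, H3K27ac gave 0 (from 1), where 1594 of 68817 peaks were called higher and 551 lower. With the replicate block, GPS2 in Ncor LKO gave 5 of 26, NCOR in Gps2 LKO 9 and PPARα in Ppara KO 0. Over all peaks the block called 46 higher and 10495 lower of 56278, 163 and 125 of 80813, and 0 and 0 of 40241. No other member call count moved past 1.5 times. The replicate numbers pair no libraries by the labels. A pseudocount of 5 left 3 of 7 H3K4me3 peaks past 2-fold, and 3 of the 5 neighbour calls lay within 200 kb. The cause of these changes was not tested.

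Leaving out 1 library gave 0 to 1 calls for H3K27ac in Ncor LKO, 0 to 2 for the difference, 8 to 13 for Smrt WT against Ncor WT (from 15), 0 to 17 for GPS2 in Ncor LKO, 0 to 4 for NCOR in Gps2 LKO, 0 to 1 for NCOR in Ppara KO, 11 to 16 for PPARα in Gps2 LKO and 0 to 5 for PPARα in Ppara KO. Over all peaks, higher and lower calls were then 556 to 1393 and 203 to 564 for H3K27ac in Ncor LKO. The difference had 39 to 308 and 12 to 97, and Smrt WT against Ncor WT 6139 to 7624 and 4688 to 5507. GPS2 in Ncor LKO had 0 to 224 and 0 to 33248, and NCOR in Gps2 LKO 0 to 48 and 0 to 30. NCOR in Ppara KO had 61 to 175 and 1138 to 2749. PPARα had 10127 to 24550 and 29 to 251 in Gps2 LKO, and 0 to 23 and 0 to 8828 in Ppara KO.

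Scaling sets the balance of calls over all peaks. The share of called peaks that were higher went from 5.16% to 42.0% with TMM scaling for NCOR in Ppara KO, from 99.3% to 55.4% for PPARα in Gps2 LKO, from 0% to 79.5% for GPS2 in Ncor LKO, and from 0.063% to 12.5% for PPARα in Ppara KO. For RNA it was 52.1% with TMM scaling and 25.2% without. Peaks of under about 20 tags per library, as at Dpy19l3, limit what these depths can show.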
